A study of Homo sapiens with 33 samples.

Results

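The genes described here are 47 named components of the lysosome: structural proteins, channels and transporters of its membrane, its proteases, its glycosidases and sulfatases, its lipid-handling proteins, subunits of its proton pump, and the transcription factors TFEB and TFE3. They were chosen by name, with earlier results of these data known. Their values were read from the 3 tables of fold changes that the authors deposited. Of the 47 genes, 45 had values in at least 1 table and 44 in all 3, among 15149 genes in the series. CTSO and NEU1 were not analysed here in any table, and CTSH was not analysed here in the UM-UC-3 table.

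The cells carried CRISPR deletions in GABPB1, which encodes the activating B1 subunit of the transcription factor GABP. In A-375, a melanoma line, the B1KO group, without exons 2 to 9, had 4 libraries of 4 clones, the B1X2KO group, without exon 2, had 8 libraries of 5 clones, and the B1LKO group, without exon 9 and so aimed at the long form of the protein, had 2 libraries of 2 clones. Their controls were 4 libraries from 3 clones edited at ROSA26, a locus used as an editing control, and 2 libraries of parental cells. UM-UC-3 cells come from a bladder cancer, and 4 of their libraries came from 4 B1KO clones and 5 from 4 B1X2KO clones, against 3 libraries from 3 ROSA26 clones and 1 library of parental cells. The tables join B1KO and B1X2KO as a total knockout, with 12 libraries in A-375 and 9 in UM-UC-3. The remaining table holds the long-form knockout of A-375. All groups derive from 1 parental line per cell type, and each edited group is a set of clones. The tables are named as comparisons with parental cells, and no source used here tells whether the ROSA26 libraries entered those fits.

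Lysosomes are acidic compartments in which hydrolases break down proteins, glycans and lipids delivered by endocytosis and autophagy. A proton pump, the V-ATPase, acidifies the lumen, glycoproteins such as LAMP1 and LAMP2 line the membrane, and channels and transporters such as MCOLN1 and NPC1 export ions and digested products. TFEB and TFE3 bind an E-box-containing element, known as the CLEAR element, near the start of many lysosomal genes, and GABP binds the ETS motif through its subunit GABPA.

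Promoter sequence bears on both factors, so the 250 bases before the RefSeq start (GRCh38.p14) are shown for the genes with the smallest adjusted p in a total knockout that best show the motifs or their absence, and for LAMP1 and MCOLN1, which were chosen after their values were seen because they hold several copies. Capitals mark CCGGAAG, an ETS motif, and TCACGTG, the core of the CLEAR element, on either strand. TCACGTG contains the E-box CACGTG and overlaps it, and an A in capitals follows where both strands match. ATP6V0D1 lies at chr16:67481158-67481407 (minus strand), GAA at chr17:80101331-80101580 (plus strand), LAMP1 at chr13:113296989-113297238 (plus strand), MCOLN1 at chr19:7522374-7522623 (plus strand), IDS at chrX:149505307-149505556 (minus strand) and SMPD1 at chr11:6390224-6390473 (plus strand). Each is given 5′ to 3′ on the strand of its gene.
ATP6V0D1: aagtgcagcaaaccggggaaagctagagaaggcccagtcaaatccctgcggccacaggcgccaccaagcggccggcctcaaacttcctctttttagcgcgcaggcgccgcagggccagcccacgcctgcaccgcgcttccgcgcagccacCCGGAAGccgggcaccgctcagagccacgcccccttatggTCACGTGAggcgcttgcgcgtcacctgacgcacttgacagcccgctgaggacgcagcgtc
GAA: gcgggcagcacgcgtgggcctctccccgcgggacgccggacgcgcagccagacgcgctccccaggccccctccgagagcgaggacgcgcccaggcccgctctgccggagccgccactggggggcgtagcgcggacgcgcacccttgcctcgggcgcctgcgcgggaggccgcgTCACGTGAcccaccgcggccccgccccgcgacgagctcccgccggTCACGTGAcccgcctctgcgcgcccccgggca
LAMP1: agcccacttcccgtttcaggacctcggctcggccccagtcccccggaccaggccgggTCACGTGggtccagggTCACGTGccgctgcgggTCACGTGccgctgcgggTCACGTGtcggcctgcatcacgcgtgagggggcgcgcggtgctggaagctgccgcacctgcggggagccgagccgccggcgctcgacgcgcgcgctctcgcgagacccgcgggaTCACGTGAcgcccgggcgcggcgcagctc
MCOLN1: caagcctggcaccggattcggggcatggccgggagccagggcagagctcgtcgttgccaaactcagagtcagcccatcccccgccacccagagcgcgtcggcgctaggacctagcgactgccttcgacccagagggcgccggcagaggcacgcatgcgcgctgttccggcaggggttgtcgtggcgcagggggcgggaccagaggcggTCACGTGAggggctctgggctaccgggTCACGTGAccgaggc
IDS: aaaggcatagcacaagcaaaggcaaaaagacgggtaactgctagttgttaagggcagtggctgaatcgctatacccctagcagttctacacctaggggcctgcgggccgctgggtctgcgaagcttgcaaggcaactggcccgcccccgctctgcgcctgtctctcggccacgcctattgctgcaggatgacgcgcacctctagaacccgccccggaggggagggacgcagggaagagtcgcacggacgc
SMPD1: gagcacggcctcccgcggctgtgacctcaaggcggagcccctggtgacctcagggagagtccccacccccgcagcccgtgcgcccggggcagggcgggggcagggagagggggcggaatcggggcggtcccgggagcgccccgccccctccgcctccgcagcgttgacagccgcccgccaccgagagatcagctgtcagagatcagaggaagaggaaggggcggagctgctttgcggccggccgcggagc

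ATP6V0D1, a subunit of the membrane sector of the V-ATPase, held 1 copy of each motif. LAMP1 held 5 copies of TCACGTG, and GAA and MCOLN1 held 2 each. IDS and SMPD1 held none of the motifs searched in this window. CTSH and MAN2B1, whose adjusted p was also among the smallest in A-375, held none either and are not shown. RefSeq windows were matched for 33 of the 47 genes. The 14 without were LAMP2, CTSB, CTSK, CTSO, CTSS, HEXA, SGSH, NAGLU, MANBA, ARSA, ASAH1, PSAP, ATP6V1A and ATP6V1H. In these, TCACGTG and CACGTG were each found in 10 genes (30.3%), against 4.02% and 7.73% of 27305 genes in the RefSeq table. The 10 genes were ARSB, ATP6V0D1, CLN3, CTSA, CTSD, CTSF, GAA, LAMP1, MCOLN1 and NEU1. CCGGAAG was found in 4 genes (12.1%), ATP6V0D1, CLN3, FUCA1 and GALC, against 10.2% of genes. A match describes the letters of the window and is not a binding site. Of the 9 measured genes with TCACGTG, 3 were higher in the A-375 total knockout (ARSB, ATP6V0D1 and MCOLN1) and 2 in the UM-UC-3 total knockout (GAA and MCOLN1), with 0 lower in either, by the authors' adjusted p under 0.05. Of the genes whose windows lacked it, 5 of 23 were higher in A-375, and 9 of 22 were higher and 2 lower in UM-UC-3. Median log2 fold changes with and without TCACGTG were 0.59 and 0.40 in A-375, and -0.0034 and 0.37 in UM-UC-3. With CCGGAAG, 1 of 4 genes was higher in each line. Without it, 7 of 28 were higher in A-375, and 10 of 27 were higher and 2 lower in UM-UC-3. Medians with and without CCGGAAG were 0.32 and 0.50 in A-375, and -0.0067 and 0.27 in UM-UC-3. Over all genes 5.07% were higher and 5.74% lower in A-375, and 17.0% higher and 14.2% lower in UM-UC-3. The 2 of 9 with TCACGTG in UM-UC-3 is thus near the background. Calls and medians with and without either motif were not tested against each other.

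**Figure D1:**
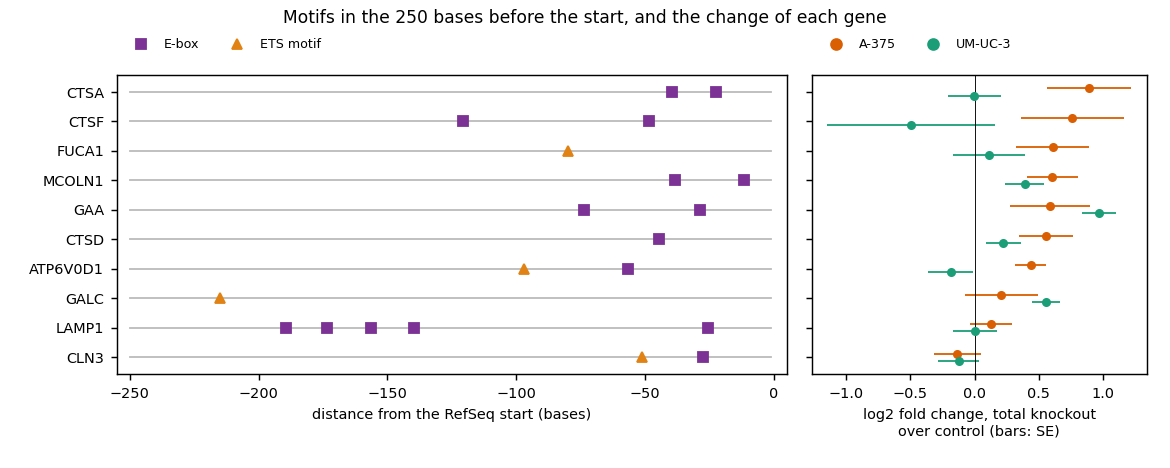
Positions of the E-box (squares) and ETS motif (triangles) in the 250 bases before the first RefSeq start of 10 lysosomal genes, beside the log2 fold change of each gene in the total knockout of A-375 (orange) and UM-UC-3 (green), with SE. The genes run from the highest to the lowest A-375 value, and LAMP1, with 5 E-boxes, lies near 0 in both lines. ARSB, whose match lies before its second start, and NEU1 are not drawn.

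The deposited files give a mean over libraries, a log2 fold change and its standard error for each gene, with no value per library. The depth of each sample is therefore unknown, and the spread between libraries enters only through the standard error. The labels name clones for the edited libraries, and where several libraries came from 1 clone the p-values measure partly the spread within clones. Fold changes below are log2 values of knockout over control with their SE, and the test is the authors' DESeq2 Wald test, adjusted by Benjamini-Hochberg over the whole table and called at an adjusted p under 0.05. RNA came from bulk cultures, in which fewer cells of a type and less RNA per cell cannot be told apart.

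The deleted gene was checked first. In the authors' deposited tables the entry for the long form, GABPB1L, changed by -10.60 ± 0.70 in the A-375 total knockout, by -12.60 ± 0.71 in the UM-UC-3 total knockout and by -12.79 ± 1.47 in the long-form knockout. The entry for the short form, GABPB1S, changed by -9.81 ± 0.72, -9.86 ± 2.70 and 13.95 ± 1.04 in the same tables. An entry for the short form without exon 2, GABPB1S-DEX2, was higher in both total knockouts (12.36 ± 1.88 in A-375 and 10.15 ± 1.62 in UM-UC-3 in the authors' deposited tables) and changed by -12.00 ± 1.48 in the long-form table. In the A-375 tables the 2 short-form entries thus run in opposite directions. Whether their names were exchanged in the long-form table or the controls differed was not tested, so the short-form values of that table cannot be read as a change of a given form. GABPB2, the paralog of GABPB1, was higher by 1.81 ± 0.32 in A-375 and by 2.49 ± 0.20 in UM-UC-3 in the authors' deposited total-knockout tables.

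Markers of the labelled cell types were present in part. In the A-375 total-knockout table, 5 of 8 melanocyte-lineage markers were measured, among them SOX10 at a mean of 14704 normalized counts and S100B at 1586, while the pigment gene PMEL had 20.1. In UM-UC-3, KRT18 had a mean of 8029 and KRT8 of 2449, 6 of 12 urothelial and epithelial markers were measured, and UPK2, UPK3A, KRT5, KRT20 and EPCAM were not analysed here. Of the urothelial and epithelial markers, 5 of 12 were also measured in A-375, the highest at a mean of 4835. Of the melanocyte markers, 6 of 8 were measured in UM-UC-3, the highest at a mean of 357. The number of markers measured therefore does not tell the lines apart. Of the 8 myeloid markers, 2 were measured in A-375 and 1 in UM-UC-3. CSF1R, a myeloid receptor, had a mean of 35.7 in the A-375 and 61.4 in the UM-UC-3 total-knockout table, and PTPRC, CD14, CD163, SPI1 and TYROBP were not analysed here. The levels come from separately normalized tables and cannot be compared directly between lines.

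Most lysosomal genes lay above 0 in the A-375 total knockout, and those that passed the test rose. By the authors' deposited table, a total of 10 of 45 genes were higher and 0 lower, where 5.07% of all genes were called higher and 5.74% lower. The median log2 fold change of the 45 genes was 0.40, against -0.05 over all genes, and 38 genes (84.4%) lay above 0, against 45.4% of all genes. At an unadjusted p under 0.05, 20 of the 45 genes were higher and 0 lower, against 1631 and 1999 of 14330 over all genes. With the median SE of 0.25, a gene needed a log2 change of about 0.69 to be called.

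In UM-UC-3 more genes were called, in both directions. The authors' deposited table had 16 of 44 lysosomal genes higher and 2 lower, where 17.0% of all genes were called higher and 14.2% lower. The median log2 fold change was 0.24, against 0.03 over all genes, and 31 genes (70.5%) lay above 0, against 52.7% of all genes. At an unadjusted p under 0.05, 18 of the 44 genes were higher and 4 lower, against 3004 and 2479 of 13310 over all genes. The median SE was 0.16, so that a change of about 0.38 sufficed for a call. Marker genes moved in this table too: 2 of 6 measured melanocyte markers, 4 of 6 urothelial markers and CSF1R were called higher and KRT18 was called lower, and their part in the lysosomal values was not tested.

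The long-form knockout of A-375 gave 1 call. CTSK was higher, 0 of the 45 genes were lower, and 0.240% of all genes were called higher and 0.664% lower in the authors' deposited table. At an unadjusted p under 0.05, 1 gene was higher and 3 were lower, against 652 and 893 of 14156 over all genes. The median log2 fold change was 0.02, as over all genes, and 23 of 45 genes lay above 0. The labels give 2 libraries of this knockout, and a log2 change of about 0.77 was needed for a call at the median SE of 0.22.

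**Figure D2:**
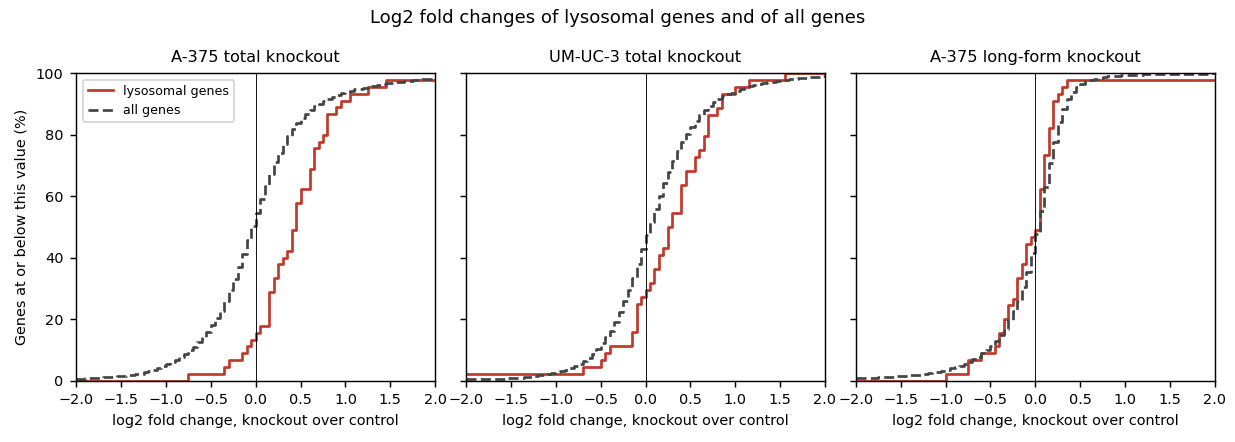
Cumulative share of genes (vertical axis, percent) at or below each log2 fold change (horizontal axis) for the lysosomal genes (solid red) and all genes (dashed), in each deposited table. The red curve lies to the right of the dashed one over most of its range in both total knockouts, with medians of 0.40 against -0.05 in A-375 and 0.24 against 0.03 in UM-UC-3, and in the long-form knockout the medians are both 0.02 while 91.1% of the lysosomal genes and 77.8% of all genes lie at or below 0.2.

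Within each table, genes were ranked by mean normalized count per kilobase of their longest annotated transcript. PSAP, the precursor of the saposins that help lipid hydrolases reach their substrates, stood at the 99.4th percentile in the A-375 total, the 99.7th in the UM-UC-3 total and the 99.0th in the A-375 long-form table. CTSZ, a cathepsin with carboxypeptidase activity, stood at the 99.2nd percentile in the A-375 total table and the 14.9th in UM-UC-3. CTSF, a cysteine cathepsin, stood at the 91.8th percentile in the A-375 total table and the 15.3rd in UM-UC-3, and FUCA1, the lysosomal fucosidase, at the 68.7th in A-375 and the 9.96th in UM-UC-3. TFEB ranked low in each table, at the 16.0th percentile in the A-375 total, the 22.4th in the UM-UC-3 total and the 15.9th in the A-375 long-form table. These ranks describe levels within separately normalized tables and carry no test.

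Among the structural membrane glycoproteins, LAMP2 rose in both cell lines and LAMP1 was called in none of the tables. LAMP2 (chrX:120427827-120469365, minus strand, hg38), which serves in chaperone-mediated autophagy, changed by 0.46 ± 0.15 in A-375 (adjusted p = 0.026) and by 0.83 ± 0.13 in UM-UC-3 (adjusted p = 4e-08) per the authors' deposited tables. The UM-UC-3 value is a 1.78-fold difference with a 95% interval of 1.48 to 2.13. In the long-form knockout the authors' deposited value of LAMP2 was 0.10 ± 0.20 (adjusted p = 0.87). LAMP1, which is used as a general marker of lysosomes, had values of 0.13 ± 0.16 in A-375 (adjusted p = 0.66), 0.00 ± 0.17 in UM-UC-3 (adjusted p = 0.995) and 0.22 ± 0.20 in the long-form knockout (adjusted p = 0.71), per the authors' deposited tables. SCARB2, the receptor that carries glucocerebrosidase to lysosomes, rose in UM-UC-3 by 0.53 ± 0.12 (adjusted p = 0.00023) and had 0.18 ± 0.22 in A-375 (adjusted p = 0.63) per the authors' deposited tables.

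Of the 3 membrane channels and transporters, 1 rose in A-375 and 2 in UM-UC-3, where 5.07% and 17.0% of all genes were called higher. NPC1 (chr18:23506184-23586898, minus strand), which exports cholesterol from the lysosome, rose by 1.14 ± 0.24 in UM-UC-3 (2.20-fold, interval 1.58 to 3.06, adjusted p = 4.6e-05) per the authors' deposited table. In A-375 the authors' deposited value was 0.13 ± 0.13 (adjusted p = 0.58). MCOLN1 (chr19:7522626-7534009, plus strand), the calcium channel TRPML1, rose in both lines, by 0.60 ± 0.20 in A-375 (adjusted p = 0.028) and 0.39 ± 0.15 in UM-UC-3 (adjusted p = 0.038) per the authors' deposited tables. The UM-UC-3 call for MCOLN1 was lost when fold changes were centred on the median of all genes (adjusted p = 0.058). CLN3, a membrane protein mutated in juvenile Batten disease, was called in none, with values between -0.13 and 0.19 in the authors' deposited tables.

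The cathepsins and other proteases lay above 0 in all 11 measured cases in A-375, of which 2 rose. Among all genes in A-375, 45.4% lay above 0 and 5.07% were called higher. In UM-UC-3, 7 of 10 lay above 0, with 3 called higher and 1 lower, against 52.7%, 17.0% and 14.2% of all genes. In the long-form knockout 6 of 11 lay above 0, against 52.2% of all genes. CTSH, an aminopeptidase, rose by 1.22 ± 0.27 (2.33-fold, interval 1.61 to 3.36, adjusted p = 0.00046) in the authors' deposited A-375 table. CTSL (chr9:87725519-87731393, plus strand), an endopeptidase of broad specificity, rose by 0.92 ± 0.30 in A-375 (adjusted p = 0.024) and by 0.66 ± 0.17 in UM-UC-3 (adjusted p = 0.0011) per the authors' deposited tables. Pseudogenes resembling CTSL exist, so reads may be shared among them.

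Other proteases stood near or past the threshold. CTSA, which also protects beta-galactosidase and neuraminidase from degradation, had 0.89 ± 0.33 (adjusted p = 0.058) and CTSD, the main aspartic protease of the lysosome, had 0.55 ± 0.21 (adjusted p = 0.066) in the authors' deposited A-375 table. Both were called in A-375 by the authors' q-value under 0.05 or after centring on the median of all genes. In UM-UC-3 the authors' deposited values were -0.0034 ± 0.21 for CTSA (adjusted p = 0.99) and 0.22 ± 0.14 for CTSD (adjusted p = 0.21). The authors' deposited long-form value of CTSD was -0.10 ± 0.20 (adjusted p = 0.88). CTSA shares exonic bases with NEURL2 and PLTP on the opposite strand. In UM-UC-3, TPP1, a tripeptidyl peptidase, rose by 0.44 ± 0.08 (adjusted p = 2.2e-06) and CTSS, an endopeptidase known for antigen processing, rose by 1.52 ± 0.60 (adjusted p = 0.040) at a mean of 78.9 normalized counts in the authors' deposited table. CTSC, which activates granule serine proteases, fell by 0.54 ± 0.20 in UM-UC-3 (adjusted p = 0.026) and had 0.61 ± 0.28 in A-375 (adjusted p = 0.15) per the authors' deposited tables.

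The glycosidases and sulfatases rose in 3 of 15 cases in A-375 and 5 of 15 in UM-UC-3, with none called lower in either. Among all genes 5.07% were higher and 5.74% lower in A-375, and 17.0% higher and 14.2% lower in UM-UC-3. The class was not uniform in UM-UC-3, where its median was 0.11 and 6 of 15 genes lay below 0. At an unadjusted p under 0.05, 5 were higher and 2, GLA and IDUA, lower in that line. IDS (chrX:149476990-149521096, minus strand), the iduronate sulfatase that starts the breakdown of heparan and dermatan sulfate, had the smallest adjusted p of the lysosomal genes in A-375. It rose by 1.43 ± 0.28 in A-375 (2.70-fold, interval 1.85 to 3.93, adjusted p = 4.2e-05) and by 0.79 ± 0.15 in UM-UC-3 (1.73-fold, interval 1.41 to 2.14, adjusted p = 6.7e-06) per the authors' deposited tables. A pseudogene near IDS resembles part of it, so some reads may be shared. IDS also shares 1529 exonic bases with AC244197.3 on the same strand. In A-375, MAN2B1, an alpha-mannosidase, rose by 1.00 ± 0.28 (adjusted p = 0.0090) and ARSB, the N-acetylgalactosamine 4-sulfatase, by 0.79 ± 0.23 (adjusted p = 0.0094) per the authors' deposited table.

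Besides IDS, the glycosidases called in UM-UC-3 were GAA, MANBA, GALC and NAGLU, none of which was called in A-375. GAA, the acid alpha-glucosidase that degrades glycogen, rose by 0.97 ± 0.13 (1.96-fold, interval 1.64 to 2.34, adjusted p = 2.3e-11) and MANBA, a beta-mannosidase, by 0.82 ± 0.12 (adjusted p = 1.4e-10) in the authors' deposited UM-UC-3 table. GALC, the galactocerebrosidase, rose by 0.55 ± 0.11 (adjusted p = 1e-05) and NAGLU, an enzyme of heparan sulfate breakdown, by 0.36 ± 0.15 (adjusted p = 0.047) per the same authors' deposited table. The NAGLU call was lost after centring on the median of all genes (adjusted p = 0.072). GAA had 0.59 ± 0.31 in A-375 (adjusted p = 0.22), per the authors' deposited table.

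Of the 7 lipid hydrolases, carriers and activators, 1 rose in A-375, and 3 rose and 1 fell in UM-UC-3. Among all genes 5.07% were higher and 5.74% lower in A-375, and 17.0% higher and 14.2% lower in UM-UC-3. The count of 1 lower gene in UM-UC-3 is thus near the background. SMPD1 (chr11:6390431-6394998, plus strand), the acid sphingomyelinase that turns sphingomyelin into ceramide, fell by 2.65 ± 0.38 in UM-UC-3 (adjusted p = 2.6e-10) per the authors' deposited table. That is 0.159 times the control level, with an interval of 0.0950 to 0.266. In A-375 the authors' deposited value was -0.77 ± 0.45 (adjusted p = 0.27). NPC2, which hands cholesterol to NPC1, rose by 0.69 ± 0.15 (adjusted p = 8.4e-05), ASAH1, the acid ceramidase, by 0.63 ± 0.15 (adjusted p = 0.00019) and GM2A, the GM2 activator, by 0.62 ± 0.15 (adjusted p = 0.00043) in the authors' deposited UM-UC-3 table. NPC2 overlaps ISCA2, and NPC1 overlaps RMC1, on the opposite strand; GM2A resembles pseudogenes. In A-375, PSAP rose by 0.79 ± 0.28 (adjusted p = 0.046), and NPC2 had 0.70 ± 0.32 (adjusted p = 0.13) per the authors' deposited table.

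Of the 4 V-ATPase subunits, 2 rose in A-375 and 0 in UM-UC-3, where 5.07% and 17.0% of all genes were called higher. ATP6V0D1 rose by 0.44 ± 0.12 (adjusted p = 0.0080) and ATP6AP1, an accessory subunit, by 0.66 ± 0.20 (adjusted p = 0.017) in the authors' deposited A-375 table. In UM-UC-3 ATP6AP1 had 0.40 ± 0.17 (adjusted p = 0.068) and ATP6V0D1 had -0.19 ± 0.18 (adjusted p = 0.44) per the authors' deposited table. Of the transcription factors, TFE3 rose in UM-UC-3 by 0.27 ± 0.08 (adjusted p = 0.0088) and had 0.43 ± 0.25 in A-375 (adjusted p = 0.25), per the authors' deposited tables. TFEB had -0.15 ± 0.29 in A-375 (adjusted p = 0.78) and 0.35 ± 0.23 in UM-UC-3 (adjusted p = 0.25) per the authors' deposited tables. The authors' deposited long-form values were -0.38 ± 0.37 for TFEB (adjusted p = 0.72) and 0.02 ± 0.26 for TFE3 (adjusted p = 0.98).

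**Figure D3:**
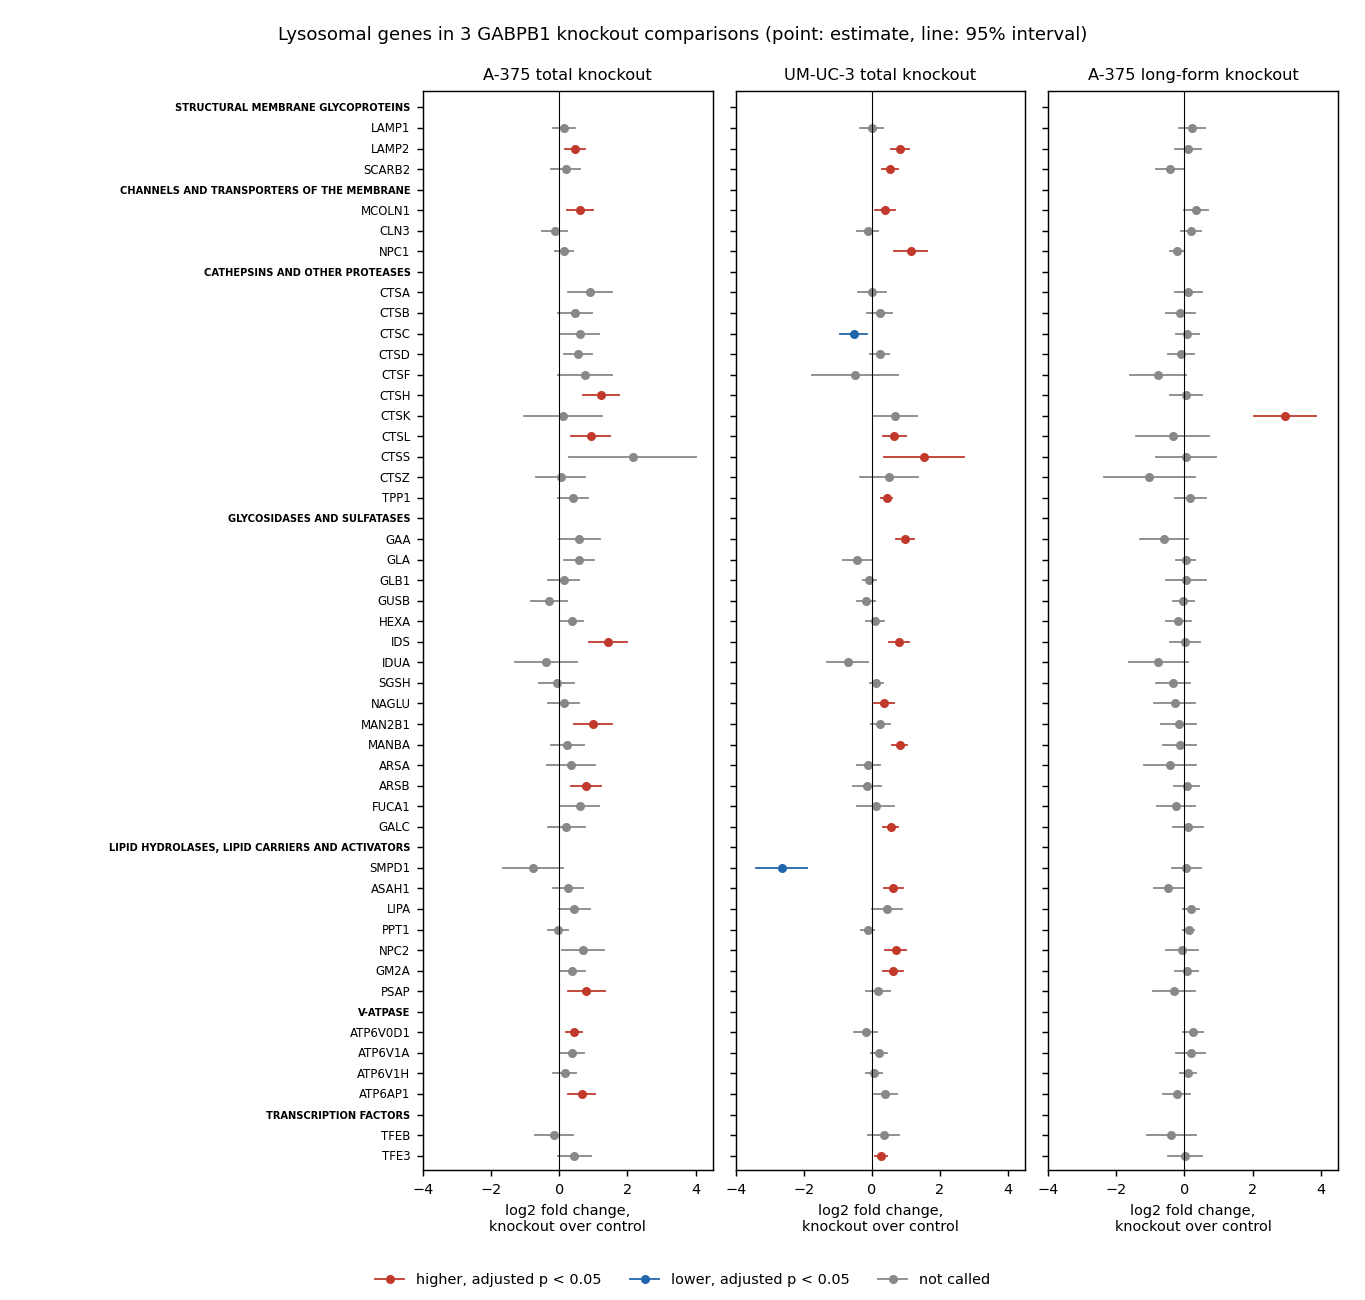
Log2 fold change of knockout over control (horizontal axis) with its 95% interval for the lysosomal genes, grouped by role (vertical axis), in the A-375 total (left), UM-UC-3 total (middle) and A-375 long-form (right) knockout. Red genes were called higher and blue genes lower at an adjusted p under 0.05, which gives 10 red genes on the left, 16 red and 2 blue genes in the middle, and 1 red gene, CTSK, on the right.

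The total knockouts were then compared between cell lines, whose tables share no library. Of 44 genes measured in both, CTSL, IDS, LAMP2 and MCOLN1 were called higher in each, which is 4 genes, where 1.20% of 12642 genes were called higher in each. No lysosomal gene was called lower in both or in opposite directions, where 2.07% and 0.546% of the 12642 genes were. The difference of the fold changes, A-375 minus UM-UC-3, was tested by its z, adjusted over all genes whose mean reached 10 in each table. For IDS it was 0.64 with an interval of 0.01 to 1.26 (adjusted p = 0.19), and for LAMP2 -0.36 with an interval of -0.76 to 0.03 (adjusted p = 0.24). The difference for CTSL had an interval of -0.41 to 0.93, and that for MCOLN1 of -0.28 to 0.70.

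The lines differed for 6 of the 44 genes, where 10.4% of 12639 genes differed, so that the count itself is near the background. The change of NPC1 was smaller in A-375, with a difference of -1.01 ± 0.28 (adjusted p = 0.0075). CTSC had a difference of 1.15 ± 0.35 (adjusted p = 0.016), with values above 0 in A-375 and below 0 in UM-UC-3. For GLA, the alpha-galactosidase, the authors' deposited values were 0.58 ± 0.23 in A-375 and -0.43 ± 0.22 in UM-UC-3, neither called, and the difference was 1.01 ± 0.32 (adjusted p = 0.021). SMPD1 lay further below 0 in UM-UC-3, with a difference of 1.88 ± 0.59 (adjusted p = 0.022). The differences for ARSB, 0.94 ± 0.31 (adjusted p = 0.031), and ATP6V0D1, 0.62 ± 0.21 (adjusted p = 0.040), were also positive.

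**Figure D4:**
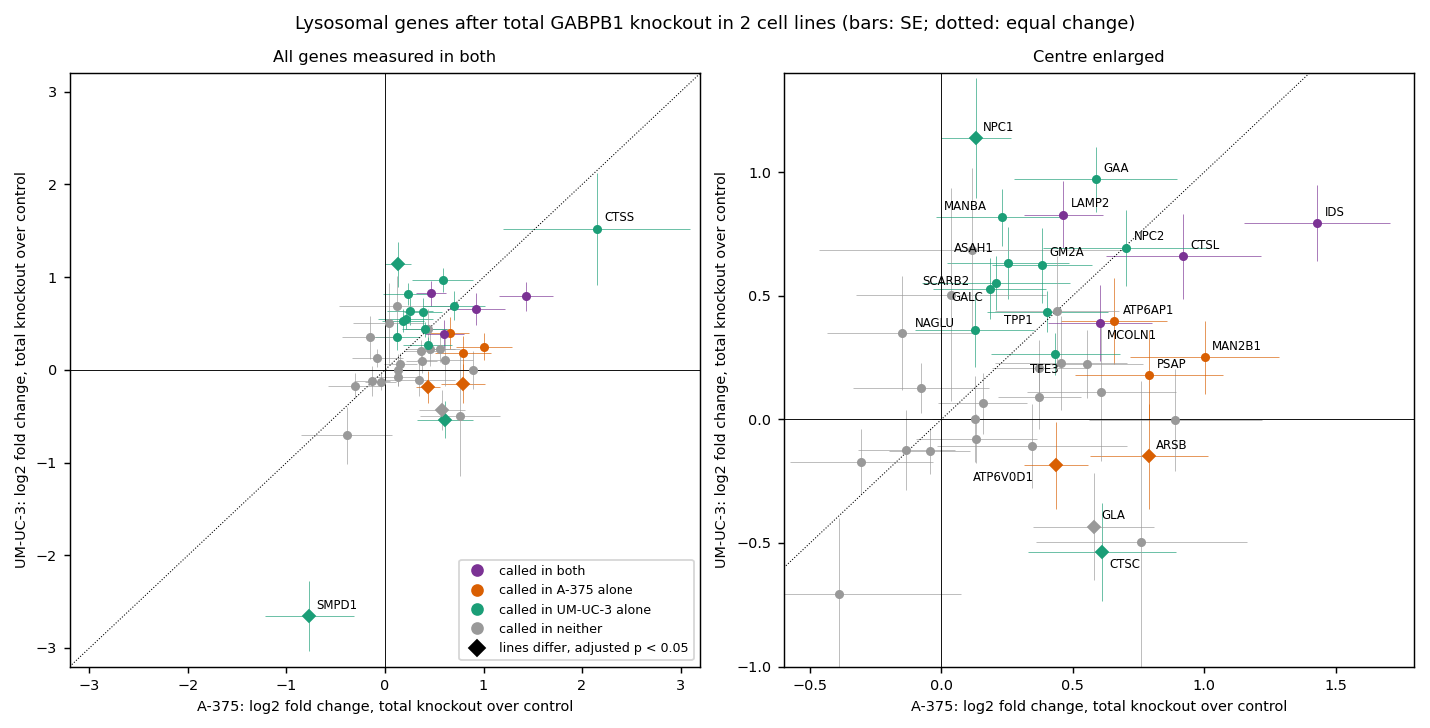
Log2 fold change in the A-375 total knockout (horizontal axis) against that in the UM-UC-3 total knockout (vertical axis) for 44 lysosomal genes, with SE; the right panel enlarges the centre and labels the genes called in either line or differing between lines. CTSL, IDS, LAMP2 and MCOLN1 (purple) were called in both lines, and diamonds mark the 6 genes whose changes differed between lines.

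The long-form knockout was set beside the total knockout of A-375. These tables may share control libraries, in which case the SE of the difference is too large. Total minus long-form differed for 4 of 45 genes, where 4.45% of genes differed. IDS had 1.43 ± 0.28 in the total and 0.02 ± 0.22 in the long-form knockout in the authors' deposited tables, a difference of 1.41 ± 0.36 (adjusted p = 0.0071). CTSH differed by 1.18 ± 0.36 (adjusted p = 0.034) and ATP6AP1 by 0.88 ± 0.28 (adjusted p = 0.044).

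CTSK (chr1:150796208-150808323, minus strand), a collagen-degrading cathepsin, ran the other way. It rose by 2.95 ± 0.47 in the long-form knockout (7.75-fold, interval 4.11 to 14.6, adjusted p = 7.46e-07) and had 0.12 ± 0.58 in the total knockout (adjusted p = 0.93) per the authors' deposited tables. The difference, total minus long-form, was -2.84 ± 0.75 (adjusted p = 0.010). Its mean level was 664 normalized counts in the long-form and 72.8 in the total-knockout table. These tables were normalized separately, with median means of 1564 and 542 over all genes, so the levels cannot be compared directly. The mean of CTSK could not be split by clone.

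Lysosomal genes outside the 47 were read from lists of 113 genes, grouped by role. In A-375, 12 of 104 measured genes were higher and 1 lower, and in UM-UC-3, 27 of 103 were higher and 5 lower. In the long-form knockout 0 of 105 were called. At an unadjusted p under 0.05, 7 of these 105 were higher and 4 lower, against 652 and 893 of 14156 over all genes. The shares over all genes were 5.07% higher and 5.74% lower in A-375, 17.0% higher and 14.2% lower in UM-UC-3, and 0.240% higher and 0.664% lower in the long-form knockout, and each list's counts are to be read against them. In A-375 the V-ATPase list had 4 of 15 subunits higher, led by ATP6V0E1 at 0.79 ± 0.12 (adjusted p = 9.7e-08) and ATP6V1G1 at 0.56 ± 0.13 (adjusted p = 0.0013) per the authors' deposited table. For UM-UC-3 1 of 15 was higher, ATP6V1D, at 0.43 ± 0.13 (adjusted p = 0.0068) per the authors' deposited table.

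The membrane-protein list had 4 of 22 genes higher in A-375, and 9 of 22 higher and 2 lower in UM-UC-3. CD68, a heavily glycosylated lysosomal protein, was higher by 1.43 ± 0.34 in A-375 (adjusted p = 0.0011) and by 1.29 ± 0.14 in UM-UC-3 (adjusted p = 1e-16), and SLC17A5, the sialic acid exporter, by 0.78 ± 0.24 and 0.97 ± 0.20, in the authors' deposited tables. CLN6, a protein of the endoplasmic reticulum that lysosomal enzymes depend on, fell by 0.67 ± 0.13 (adjusted p = 1.5e-05) and LAPTM4B, a lysosomal transmembrane protein, by 0.60 ± 0.12 (adjusted p = 2e-05) in the authors' deposited UM-UC-3 table. Of the other hydrolases and cofactors, 2 of 24 were higher in A-375, with SUMF1, which activates sulfatases, at 1.19 ± 0.33 (adjusted p = 0.0079) per the authors' deposited table, and 4 of 23 were higher and 1 lower in UM-UC-3, where the count of higher genes is at the 17.0% of all genes.

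The list of TFEB regulators and related factors had 0 of 20 genes called in A-375 and 8 higher and 1 lower of 20 in UM-UC-3. FNIP1 and FLCN, which act together on the Rag GTPases, were higher by 1.08 ± 0.14 (adjusted p = 9.8e-12) and 0.63 ± 0.10 (adjusted p = 2.5e-08), RRAGC, a Rag GTPase, by 0.68 ± 0.13 (adjusted p = 6.2e-06) and MITF, a relative of TFEB, by 1.47 ± 0.30 (adjusted p = 2.4e-05), in the authors' deposited UM-UC-3 table. MTOR, the kinase that phosphorylates TFEB, fell by 0.44 ± 0.12 (adjusted p = 0.0016) in the authors' deposited UM-UC-3 table. The sorting machinery had 3 of 11 genes higher in UM-UC-3 and 0 of 11 in A-375. The tethering and positioning list had 2 genes higher and 1 lower of 12 in each line. VPS16, a core subunit of the tethering complex HOPS, fell in both lines, by 1.09 ± 0.24 in A-375 (adjusted p = 0.00051) and 0.58 ± 0.18 in UM-UC-3 (adjusted p = 0.0062), in the authors' deposited tables.

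**Figure D5:**
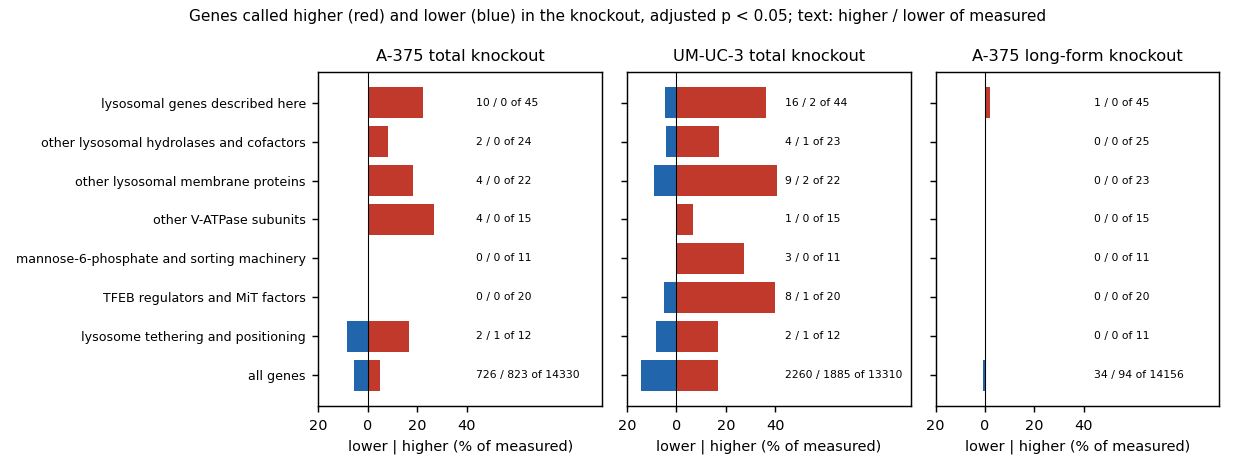
Share of measured genes called higher (red, right of 0) and lower (blue, left of 0) in the knockout at an adjusted p under 0.05, for the 47 lysosomal genes, 6 lists of other genes and all genes, in each deposited table. The text beside each bar gives genes higher and lower of those measured, for example 10 and 0 of 45 for the lysosomal genes in the A-375 total knockout.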

How the data were processed

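RNA of the edited and parental cells was sequenced with a stranded mRNA kit, per the labels' protocols. HISAT2, SAMtools, StringTie, DESeq2 and build hg38 are named without versions, per the submitters' processing notes. The order of steps, the fit's design, filters and control libraries and the strand setting of the counting were not given in the sources used here. Genes that overlap on the other strand or resemble pseudogenes are therefore uncertain. Same-strand overlaps, which no strand setting separates, include CLN3 with AC138894.1 (2480 exonic bases) and CTSD with AC068580.4 (1304). Others are MANBA with LRRC37A15P (1138) and MAN2B1 with AC010422.3 (704). The authors deposited 3 DESeq2 tables. Per the file headers, the authors' signal column is the mean over a fit's libraries of counts divided by size factors, their log2 columns are the fitted fold change and its standard error, and their score column is the Wald statistic. The deposited p-value columns hold, per the file headers, a p, its adjusted form and a q-value. No column of per-sample values was used, and depth per sample is unknown.

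Genes were called at the authors' adjusted p under 0.05. Intervals are 95% normal intervals of the log2 value from its SE, without a correction for the number of genes. Differences between tables were tested by dividing the difference of fold changes by the square root of the sum of their squared SE, with a 2-sided normal p and Benjamini-Hochberg adjustment over all genes whose mean reached 10 in each table. The difference and the recomputed tests were checked on simulated data. Python 3.11.15, pandas 2.3.3, numpy 2.4.6 and scipy 1.17.1 were used. Promoter windows came from RefSeq (GRCh38.p14), matched by symbol, and gene positions from GENCODE release 29 on hg38.

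The genes and lists were chosen with earlier results of these data known. Any of the 47 genes could be named. Full values were given for called genes and for genes past the threshold of a difference, up to 12 per table by smallest adjusted p, for TFEB, TFE3, LAMP1, LAMP2 and CTSD, and for up to 3 called genes of each other list. Genes beyond these limits, and those named because they lay near a threshold, were added after their values were seen.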

Additional observations from a re-analysis of the deposited data

Results flagged for a closer look

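For 6 lysosomal genes the change after total GABPB1 knockout differed between A-375 and UM-UC-3 by the z-test of the difference, adjusted over all genes. The log2 fold change in A-375 minus that in UM-UC-3 was -1.01 for NPC1, 1.15 for CTSC, 1.01 for GLA, 1.88 for SMPD1, 0.94 for ARSB and 0.62 for ATP6V0D1.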

How the results depend on the processing

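At an adjusted p under 0.01 the number of lysosomal genes called fell to 5 from the 10 called at 0.05 in the A-375 total knockout, the number that differed between A-375 and UM-UC-3 to 1 from 6, and the number that differed between the A-375 total and long-form knockouts to 1 from 4; the stricter limit itself sets these. With the authors' q-value under 0.05, 13 genes were called in A-375 and 22 in UM-UC-3. With a floor of 10 on the mean count or after centring on the median of all genes, 10 and 12 were called in A-375, and 18 and 16 in UM-UC-3. A floor of 100 left 10 and 17 in A-375 and UM-UC-3, where CTSS has a mean below it. CTSK was the 1 gene called in the long-form knockout under each of these 5 settings. With no floor, a floor of 100 and centring, 6 genes each time differed between the lines, and 4, 3 and 5 between the A-375 knockouts, where the floor of 100 leaves out CTSK. No called log2 change of a named gene changed sign, and among uncalled ones LAMP1 in UM-UC-3 did, at -0.03 after centring. Centring ended the UM-UC-3 calls of MCOLN1 and NAGLU, with log2 changes of 0.36 and 0.33, and added CTSA and CTSD in A-375. No paired analysis was possible because the deposited tables hold no values per library, and for the same reason leaving out each replicate was not run.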
